A study of Rattus norvegicus with 16 samples.

Results

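The comparison set 4 frontal cortex libraries of rats given 5-AzaD on a high fat diet (HF_5AzaD, replicates 3, 5, 6 and 7) against 4 of rats given the vehicle on that diet (HF_PBS, replicates 1 to 4), out of 16 libraries in the series. The libraries were chosen by the treatment stated for each. The features compared were all 14824 of 28168 loci whose mean over the 16 libraries was 1 FPKM or more (fragments per kilobase of a transcript's length, relative to all mapped fragments) and a usable value in each. All animals were male Sprague-Dawley rats, 11 weeks old at the start, kept for 7 weeks on their diet and then decapitated. HF_PBS rats ate the high fat diet and had intraperitoneal injections of phosphate-buffered saline (PBS) for 10 days. HF_5AzaD rats ate the same diet and had injections of 5-AzaD in PBS for 10 days, so by the labels both groups share the diet and the injections and differ in the drug. Chow (chow diet) and HF (high fat diet) rats, 4 each, were not injected and served here for the estimate of the spread and as reference levels. The labels do not state whether each library is a different animal. The p-values therefore reflect the spread among these libraries alone, some of which could be technical. One label is ambiguous: HFD means diet without injection in the design text but is the title of the PBS samples. Grouping here is by the treatment field. The comparison of HF_5AzaD with HF, which would take its place were the titles read the other way, had 2112 loci past the test (14.2% of those tested).

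5-AzaD (5-aza-2′-deoxycytidine, decitabine) is a cytidine analog that is phosphorylated in cells and built into newly made DNA, where it traps DNA methyltransferases and so lowers methylation of CpG sites as cells divide. Methylation of CpG-dense promoters goes with silencing, and germline genes, imprinted genes and antigen presentation genes are among those known to come on in dividing cells treated with the drug. Most neurons of the adult cortex do not divide, whereas glial precursors, microglia and vessel cells can.

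No locus passed the test in this comparison. At an adjusted p under 0.05 (limma with Benjamini-Hochberg adjustment over all loci, the test behind every adjusted p here) 0 of 14824 loci were called, which is 0% in either direction, and the lowest adjusted p was 0.237, for Cdh22. At an unadjusted p under 0.05 there were 1100 loci (7.42%), 540 higher in 5-AzaD (3.64%) and 560 lower (3.78%). In 356 loci (2.4%) the 2 groups did not overlap: in 217 all 5-AzaD libraries lay above all PBS libraries (1.46%), and in 139 below (0.938%). The median difference over all loci was 0.01 on the scale of log2(FPKM + 0.5), and 52.8% of loci had the higher mean in 5-AzaD. All differences are given on that scale as 5-AzaD minus PBS, which understates the change of genes near 0. Means were more than 1 log2 unit apart (2-fold in FPKM + 0.5) in 192 loci, 98 higher and 94 lower.

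A missed threshold does not show that levels were alike, so the intervals were counted too. The median standard error of a difference was 0.16, and in 12703 loci (85.7%) the 95% confidence interval lay within 1 log2 unit of 0 on both sides. For those loci a 2-fold difference of group means lies outside the interval. The spread behind the intervals was shared by all 4 groups. Where the injected groups varied more than the uninjected ones, the intervals can be too narrow. For the myelin gene Cldn11 the SD was 129 FPKM in PBS and 43.5 FPKM in 5-AzaD, against 7.56 FPKM in chow and 14.8 FPKM in HF. With only the 8 libraries fitted, 594 loci had an unadjusted p under 0.05 (limma), in place of 1100. Absolute depth is unknown from FPKM. The steps between the lowest values gave each library's relative depth, 76.8% to 100% of PBS 1 for the PBS libraries and 81.8% to 104% for the 5-AzaD libraries.

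**Figure D1:**
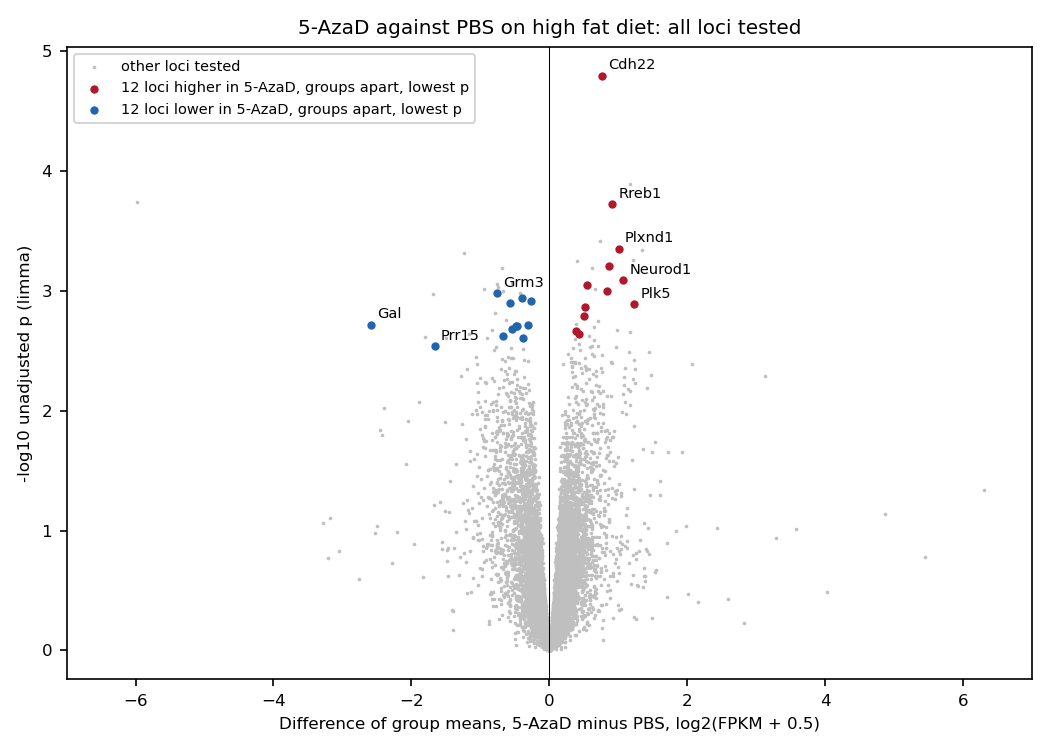
Each point is 1 of the 14824 loci tested, with the difference of group means on the x axis (log2 scale, 5-AzaD minus PBS) and -log10 of the unadjusted limma p on the y axis. Red and blue points are the 12 loci per direction with the lowest p among those with a symbol whose groups do not overlap; none passed the adjusted threshold, and Cdh22 (adjusted p 0.237) stands highest.

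Several libraries stood apart within their own group, and their makeup comes before the results. Slc17a7, the vesicular glutamate transporter gene of cortical excitatory neurons, measured 601, 426, 132 and 413 FPKM in PBS 1 to 4 and 598, 499, 466 and 460 FPKM in 5-AzaD 3, 5, 6 and 7. It was lowest in PBS 3, and the groups overlapped. Oxt, which encodes the hypothalamic peptide oxytocin, was at 0.234, 5.61, 403 and 46.6 FPKM in PBS and at 0, 8.83, 0.935 and 10.9 FPKM in 5-AzaD. Avp, which encodes vasopressin, reached 42.4 and 61.2 FPKM in PBS 3 and 4 and at most 8.58 FPKM elsewhere in the 8 libraries. Ckm, the creatine kinase gene of skeletal muscle, was at 83.8 FPKM in 5-AzaD 7 and at most 0.385 FPKM in the other 7, and the fast troponin gene Tnni2 was at 77.8 FPKM there. Of 17 tested skeletal muscle genes 15 had the higher mean in 5-AzaD, with a median difference of 1.15, and without 5-AzaD 7 there were 3 of 17 and a median of -0.21. These genes and the muscle list were chosen after their values were seen.

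Libraries did not fall into the 2 treatments by their whole profiles. Pairs from different groups correlated at 0.920 to 0.978 (median of 16 pairs 0.940) and pairs within a group at 0.925 to 0.957 (median of 12 pairs 0.939), across loci on the log2 scale. PBS 1 and 5-AzaD 3 were the most alike pair. The first principal component of the 8 libraries held 29.1% of the variance and put PBS 1, PBS 2, 5-AzaD 3 and 5-AzaD 6 on one side and PBS 3, PBS 4, 5-AzaD 5 and 5-AzaD 7 on the other.

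**Figure D2:**
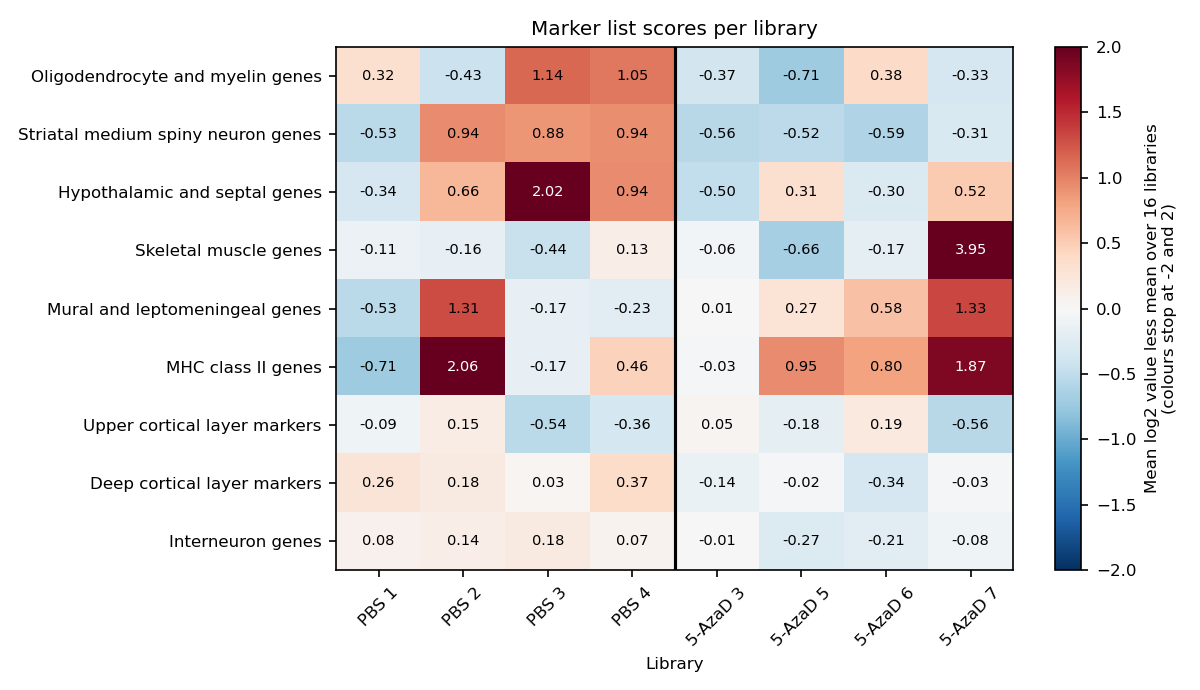
Scores of 9 marker lists (rows) in the 8 libraries (columns), each the average, over the tested members, of the log2 value centred on its mean in the 16 libraries. Myelin scores reach 1.14 and 1.05 in PBS 3 and 4, striatal scores lie at 0.88 to 0.94 in PBS 2 to 4, and the muscle score is 3.95 in 5-AzaD 7.

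The loci nearest to a call were led by Cdh22, a cadherin gene of brain cell adhesion. It measured 11.6, 11.2, 9.62 and 9.97 FPKM in PBS 1 to 4 and 17.4, 20.5, 15.5 and 20.2 FPKM in 5-AzaD 3, 5, 6 and 7. All 5-AzaD libraries lay above all PBS libraries. The difference was 0.76 with a 95% interval of 0.51 to 1.02 (adjusted p = 0.237, limma). Uninjected rats had 16.3 FPKM on chow and 15.5 FPKM on the high fat diet, so PBS, not 5-AzaD, was the group farther from these levels. Of 32 tested cadherin and protocadherin genes, 18 had the higher mean in 5-AzaD, none was called, and the median was 0.03.

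The next genes with higher values and no overlap included several of neurons, and each had an adjusted p of 0.586. Rreb1, a zinc finger transcription factor gene, was at 1.57, 1.98, 1.2 and 0.88 FPKM in PBS and 2.52, 3.52, 3.22 and 2.86 FPKM in 5-AzaD, a difference of 0.91 (0.52 to 1.31). Plxnd1, which encodes a receptor of class 3 semaphorins, was at 5.66, 9.39, 4.94 and 5.75 FPKM in PBS and 9.75, 12.5, 12.4 and 19 FPKM in 5-AzaD, a difference of 1.00 (0.53 to 1.48). Mean Rreb1 was 1.62 FPKM in chow and 2.05 FPKM in HF, below every 5-AzaD library. Plxnd1 was at 13.6 and 11.4 FPKM in those groups, close to the 5-AzaD mean of 13.4 FPKM and above the PBS mean of 6.43 FPKM. Neurod1, a transcription factor gene of neuronal differentiation, had 3.84, 4.55, 1.47 and 3.23 FPKM in PBS and 5.96, 9.21, 5.48 and 7.96 FPKM in 5-AzaD, a difference of 1.07 (0.53 to 1.62). Plk5, a polo-like kinase gene expressed in brain, had 9.05, 9.14, 5.03 and 7.36 FPKM in PBS and 15.7, 11.2, 25 and 24.3 FPKM in 5-AzaD, which gave 1.23 (0.57 to 1.89). For both genes PBS 3 was the lowest library.

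The other 7 of the 12 higher loci differed by 0.38 to 0.87. Gal3st3, which encodes a sulfotransferase acting on galactose, was at 22.7 ± 5.36 FPKM in PBS and 42.4 ± 12.7 FPKM in 5-AzaD (SD, n = 4 in each group, as for all means here). Lrrc26, which encodes an auxiliary subunit of calcium-activated potassium channels, was at 5.64 ± 0.836 and 10.6 ± 3.04 FPKM, with 15.2 FPKM in 5-AzaD 6 alone. Rexo4, a putative RNA exonuclease gene, was at 13.8 ± 1.86 and 20.2 ± 1.48 FPKM. Ptgis, the prostacyclin synthase gene, was at 0.935 ± 0.171 and 1.55 ± 0.267 FPKM, Atpaf1, an assembly factor gene of the ATP synthase, at 12.8 ± 1.37 and 16.8 ± 0.960 FPKM, Cnfn at 14.4 ± 0.936 and 19.6 ± 2.51 FPKM, and RGD1563982 at 4.78 ± 0.631 and 6.95 ± 0.760 FPKM. In 1 of the 12 loci all 5-AzaD libraries lay above all 8 uninjected ones, and in 3 all PBS libraries lay below all uninjected ones.

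**Figure D3:**
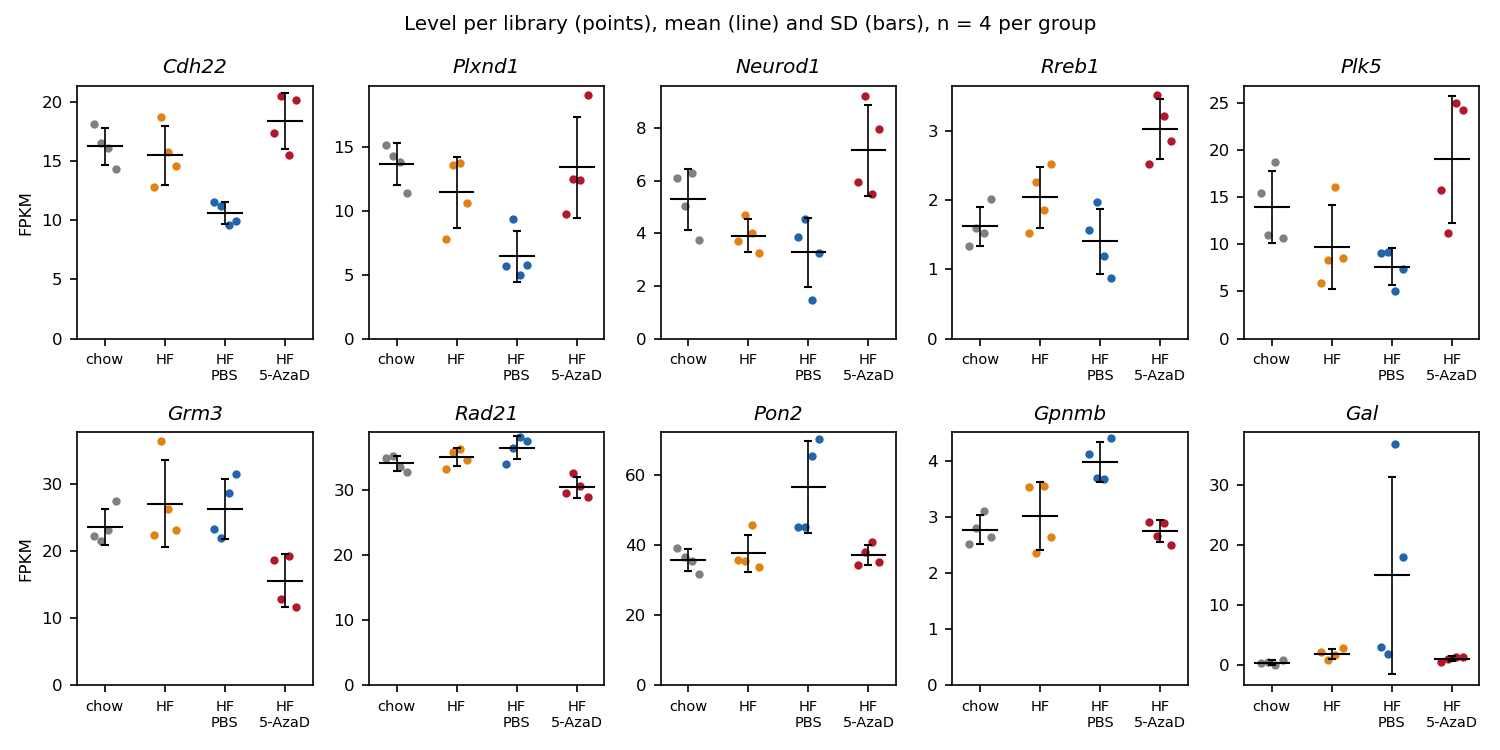
Levels in FPKM (y axis) of 10 named genes in the 4 groups (x axis), with 1 point per library, the mean as a line and the SD as bars, n = 4 per group. For Cdh22, Plxnd1, Pon2 and Gpnmb the PBS mean lies farther from the uninjected means, and for Rreb1, Grm3 and Rad21 the 5-AzaD mean does. Single libraries can still overlap. Rreb1 was at 2.53 FPKM in HF 8 and 2.52 FPKM in 5-AzaD 3, and Plxnd1 at 9.39 FPKM in PBS 2 and 7.82 FPKM in HF 5.

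Among loci with a symbol, lower values and no overlap between groups, the lowest p belonged to Grm3, which encodes the metabotropic glutamate receptor mGlu3 of astrocytes and neurons. It was at 23.3, 22.0, 28.6 and 31.5 FPKM in PBS and 18.7, 12.8, 19.3 and 11.7 FPKM in 5-AzaD, a difference of -0.76 (-1.15 to -0.36, adjusted p = 0.586). Uninjected rats had 23.6 FPKM on chow and 27.1 FPKM on the high fat diet. Of 6 tested metabotropic receptor genes 4 had lower means (median -0.23). Rad21, a subunit gene of cohesin, was at 34, 36.5, 38.1 and 37.6 FPKM in PBS and 29.6, 32.6, 30.7 and 29 FPKM in 5-AzaD, against 34.2 FPKM in chow and 35.1 FPKM in HF. The difference was small and narrow, -0.26 (-0.40 to -0.12, adjusted p = 0.586). Among 18 tested cohesin and chromosome structure genes, 9 were higher and 9 lower, with a median of -0.01. Their intervals all lay within 1 log2 unit of 0. Stag2, another cohesin subunit gene, was at 13.5 ± 1.55 and 11.1 ± 1.02 FPKM, and Ncapd3, a condensin gene, at 2.14 ± 0.0999 and 2.54 ± 0.202 FPKM with no overlap.

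Pon2, which encodes a paraoxonase of cell membranes, had 45.3, 45.3, 65.5 and 70.3 FPKM in PBS and 34.4, 38.0, 40.8 and 35.3 FPKM in 5-AzaD, a difference of -0.58 (-0.88 to -0.27). PBS 3 and 4 were its highest libraries, and the uninjected groups were at 35.8 FPKM and 37.7 FPKM, beside the 5-AzaD mean of 37.1 FPKM. Gal, the galanin gene, is a hypothalamic and brainstem neuropeptide gene. Its values were 2.96, 1.85, 36.9 and 18 FPKM in PBS and 0.471, 0.909, 1.27 and 1.30 FPKM in 5-AzaD, which gave -2.58 (-4.04 to -1.12). Here too PBS 3 and 4 stood highest, and without them the difference was -0.98 (-1.89 to -0.07, adjusted p = 0.998). With PBS 3 and 4 left out, Pon2 was at -0.29.

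The remaining 8 lower loci had differences of -0.31 to -0.67, and of -1.66 for Prr15. Gpnmb, a glycoprotein gene of microglia and other phagocytes, was at 3.98 ± 0.356 and 2.74 ± 0.195 FPKM, Arfip1, which encodes arfaptin 1, at 6.44 ± 0.456 and 4.51 ± 0.876 FPKM, and Stk17b, a serine/threonine kinase gene, at 3.23 ± 0.169 and 2.38 ± 0.300 FPKM. Spg20, the spartin gene, was at 11.4 ± 1.97 and 8.41 ± 0.586 FPKM, Tyw5, a tRNA hydroxylase gene, at 8.12 ± 1.21 and 4.94 ± 1.03 FPKM, and Rhpn2 at 1.44 ± 0.304 and 0.823 ± 0.128 FPKM. Prr15 was at 2.24 ± 0.812 and 0.372 ± 0.281 FPKM, and RGD1310553 at 9.30 ± 1.11 and 7.39 ± 0.171 FPKM. In 5 of the 12 lower loci all 5-AzaD libraries lay below all 8 uninjected ones, and in 3 all PBS libraries lay above them.

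Leaving out PBS 3 and 4, the libraries highest in myelin genes, moved several of these 24 loci toward 0. Neurod1 was then at 0.68 and Rreb1 at 0.63, while Cdh22 was at 0.66 and Gpnmb at -0.44. With the myelin and striatum scores as covariates, Gal3st3 was at 0.36, Neurod1 at 0.51, Tyw5 at -0.28 and Gal at -0.77. None of the 24 changed direction in any of the alternatives run. Because they were picked for groups that do not overlap, leaving out libraries or changing the pseudocount could not reverse them.

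**Figure D4:**
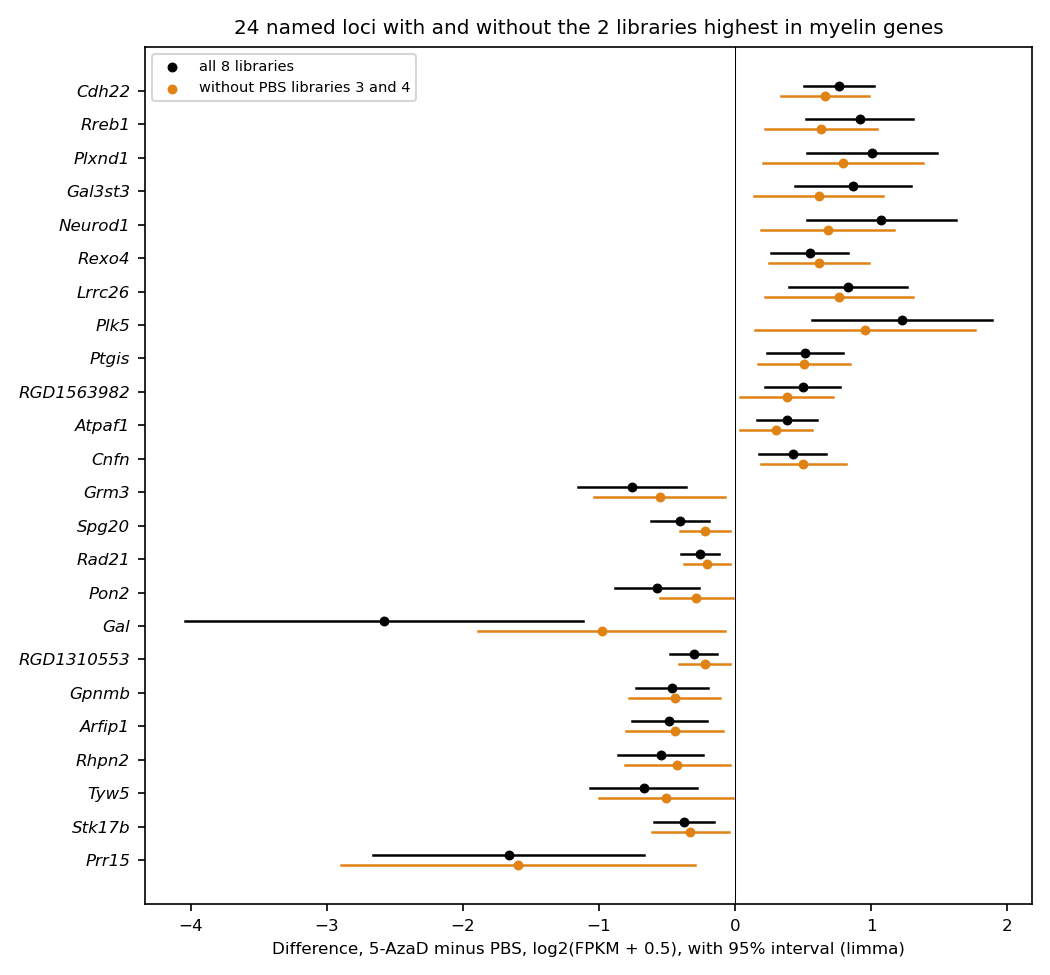
Differences (x axis, log2 scale, 5-AzaD minus PBS) of the 24 named loci (y axis) with 95% limma intervals, black with all 8 libraries and orange without PBS 3 and 4. Gal moves from -2.58 to -0.98 and Pon2 from -0.58 to -0.29, whereas Cdh22 stays near its value (0.76 and 0.66).

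The genes closest to the drug's action had close means and narrow intervals. Dnmt1, the maintenance methyltransferase gene and a direct protein target of the drug, was at 6.49, 6.42, 5.85 and 6.20 FPKM in PBS and 6.11, 6.22, 6.33 and 5.97 FPKM in 5-AzaD. The groups overlapped throughout, and the difference was -0.02 (-0.18 to 0.15, adjusted p = 0.987). Dnmt3a, a de novo methyltransferase gene, was at 5.39 ± 0.211 and 5.82 ± 0.581 FPKM, a difference of 0.10 (-0.09 to 0.28). The merged locus of Fem1a and Uhrf1, the latter a partner of Dnmt1 at replicating DNA, differed by -0.01 (-0.27 to 0.25). Dnmt3b and the Tet genes were not among the loci tested. Of 15 tested genes of the methylation machinery 7 had higher and 8 lower means, none at an unadjusted p under 0.05, with a median of -0.01. In 14 of the 15 the interval lay within 1 log2 unit of 0. Gadd45a, which acts in DNA repair and demethylation, had the lowest p of them, at 11.6 ± 0.904 and 8.94 ± 3.16 FPKM, with 4.47 FPKM in 5-AzaD 5.

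Genes that take up and activate 5-AzaD or break it down, 15 of them tested, had 6 higher and 9 lower means (median -0.03). Histone-modifying enzyme genes, 40 tested, had 27 higher means and a median of 0.05, and all 40 intervals lay within 1 log2 unit of 0. The 26 tested p53 target and DNA damage genes had 13 on each side and a median of 0.01. For cell cycle genes, 7 of 16 means were higher, and the median was -0.00147. Pcna, the sliding clamp gene of DNA replication, was at 30.2, 29.1, 36.7 and 44.0 FPKM in PBS and 28.1, 28.7, 26.9 and 30.8 FPKM in 5-AzaD (adjusted p = 0.659), highest in PBS 3 and 4.

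Imprinted genes, whose single active copy is set by methylation, had 13 higher and 10 lower means among 23 tested, with a median of 0.03 beside 0.01 for all loci. Inpp5f was at 12.8 ± 3.25 and 9.48 ± 1.24 FPKM (adjusted p = 0.631). Calcr, the calcitonin receptor gene, was at 21.7 FPKM in PBS 3 and at most 0.875 FPKM in the other 7 libraries. Igf2, an imprinted growth factor gene made in brain mainly by meninges and vessels, was at 12.2, 125, 22.2 and 22.5 FPKM in PBS and 25.7, 45, 47.3 and 155 FPKM in 5-AzaD. Its highest libraries, PBS 2 and 5-AzaD 7, also had the highest scores of mural and leptomeningeal genes (1.31 and 1.33).

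Germline genes kept silent by promoter methylation were at low levels in both groups. Of 20 in the table, 1 (Piwil2) reached the filter, and their summed level was 2.15 to 2.87 FPKM over the PBS libraries and 2.11 to 3.74 FPKM over the 5-AzaD libraries. Between 10 and 12 of the 20 were above 0 in a PBS library and between 11 and 13 in a 5-AzaD library. Mael, which encodes a factor of the piRNA pathway, measured 0.424, 0.143, 0.159 and 0.260 FPKM in PBS and 0.621, 0.519, 0.540 and 0.538 FPKM in 5-AzaD. These low values did not overlap. One chow library was at 0.596 FPKM, and the other 7 uninjected libraries were at 0.0773 to 0.335 FPKM. The exact two-sided permutation p for Mael was 0.0286, the smallest that 4 against 4 libraries can give, and it is 1 of 20 genes looked at. In a fit of all loci without the filter its adjusted p was 0.518.

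The promoters of Mael and Cdh22 are printed because one is a germline gene that methylation is known to silence and the other led the list of higher loci. Both windows are the 250 bases before the RefSeq start on GRCr8, 5′ to 3′ on the gene's strand, with each CG in capitals. Mael lies at chr13:81029624-81029873 on the minus strand, with 16 CG, and Cdh22 at chr3:174389893-174390142 on the minus strand, with 31 CG.
Mael: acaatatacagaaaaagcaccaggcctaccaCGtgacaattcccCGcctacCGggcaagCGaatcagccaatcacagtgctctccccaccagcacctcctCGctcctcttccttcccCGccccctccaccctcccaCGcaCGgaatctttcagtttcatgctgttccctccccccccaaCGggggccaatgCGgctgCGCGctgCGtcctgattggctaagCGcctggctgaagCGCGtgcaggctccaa
Cdh22: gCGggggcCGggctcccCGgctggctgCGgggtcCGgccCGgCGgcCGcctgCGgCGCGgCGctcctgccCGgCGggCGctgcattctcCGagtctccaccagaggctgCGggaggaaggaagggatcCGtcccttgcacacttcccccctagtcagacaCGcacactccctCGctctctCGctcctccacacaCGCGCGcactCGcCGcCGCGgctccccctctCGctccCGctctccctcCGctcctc
The motif searched was CG, which reads the same on both strands; 94.8% of all 27457 windows of 300 bases hold it, with a median of 7. Both windows are CpG-rich by the rule used (observed over expected CpG over 0.75 and GC over 55%), as are 22.0% of windows. The match is a description of the sequence and says nothing of its methylation, which was not analysed here.

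Across promoters the CpG class made little difference to the values. Among 8244 of 10216 loci with 1 symbol (80.7%) that matched a window, the 3935 with CpG-rich promoters had a median difference of 0.0075 and 51.9% higher means. The 2892 with intermediate promoters had a median of -0.00385 and 48.8%, and the 1417 with CpG-poor promoters had a median of 0.01 and 53.1%. Groups did not overlap, with 5-AzaD higher, in 1.42%, 1.28% and 1.13% of these classes, beside 1.46% of all loci tested.

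Loci listed at 0 in one group and above 0 in every library of the other were as many one way as the other. Over 28007 loci with usable values and no filter, 8 were above 0 in all 5-AzaD libraries and listed at 0 in all PBS libraries, and 8 had the reverse pattern. The first 8 had no gene symbol and means of 0.0649 to 0.806 FPKM. Of the second 8, 5 had a symbol and the means were 0.0275 to 0.527 FPKM. At a mean of at least 0.1 FPKM the counts were 7 and 4. A locus of Sh2d1a, a lymphocyte adaptor gene, had the highest PBS mean of those with a symbol, 0.261 FPKM, and it was above 0 in all 4 chow libraries.

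Antigen presentation genes of MHC class I had 14 higher and 8 lower means (median 0.09), and none was called. The merged locus of RT1-A3 and RT1-CE16 was at 0.318, 0.216, 0.640 and 0 FPKM in PBS and 9.26, 1.23, 11.5 and 9.01 FPKM in 5-AzaD, a difference of 3.12 (1.09 to 5.15, adjusted p = 0.586). All 5-AzaD libraries lay above PBS. The chow libraries were at 0.148, 12.4, 0.520 and 0.635 FPKM and the HF libraries at 1.91, 2.02, 0.360 and 15.1 FPKM, with 1 high library in each group. RT1-A1 was at 12.1, 26.0, 39.5 and 12.7 FPKM in PBS and 83.5, 28.9, 165 and 87.6 FPKM in 5-AzaD, with overlap. RT1-A2 had the lower mean in 5-AzaD, with 27.3 ± 10.7 and 15.2 ± 7.90 FPKM. RT1-CE16 has a further locus, at 183 FPKM in PBS 3, at 237 FPKM in 5-AzaD 5 and listed at 0 in the other 6 libraries. Class I genes are near-identical copies that differ between haplotypes, so reads can be split among them and these values are uncertain. The 5 tested class II genes had a median of 0.47, which was 0.10 without PBS 1, 0.99 without PBS 2, 0.17 without PBS 3, 0.18 without 5-AzaD 7 and 0.16 without PBS 3 and 4. RT1-Da, one of them, was at 1.76, 15.6, 1.77 and 4.07 FPKM in PBS and 2.47, 6.74, 5.24 and 11.4 FPKM in 5-AzaD. Their highest libraries were again PBS 2 and 5-AzaD 7. The part of mural and leptomeningeal cells in this was not tested. Interferon response genes had 18 of 28 higher means and a median of 0.08.

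Of oligodendrocyte and myelin genes 0 of 36 had the higher mean in 5-AzaD, with a median of -0.79, and none was called. Of these, 25 had an unadjusted p under 0.05 (3.78% of all loci did on that side), and 0 of 36 had groups that did not overlap. Mbp, the myelin basic protein gene, was at 3105, 2094, 8149 and 9065 FPKM in PBS and 2031, 1307, 4655 and 2685 FPKM in 5-AzaD. PBS 3 and 4 were far above the other PBS libraries, and 5-AzaD 6 lay above PBS 1 and 2. Enpp2, which encodes autotaxin, was at 70.8, 52.0, 111 and 99.4 FPKM in PBS and 41.4, 29.1, 62.6 and 38.7 FPKM in 5-AzaD, a difference of -0.94 (adjusted p = 0.586). Cldn11, the myelin tight junction gene, was at 273 ± 129 and 124 ± 43.5 FPKM. PBS 3 and 4 were also left out as the libraries highest in myelin genes, which by itself moves the median toward 0. Without them the median of the list was -0.19, and 3 of 36 means were higher. Without PBS 2 as well the median was -0.57, with 1 of 36 higher, against PBS 1 alone. Chow rats had 132 FPKM of Cldn11 and HF rats 131 FPKM, next to the 5-AzaD mean. In such bulk samples fewer cells of a type, or less of that tissue in the dissected piece, cannot be told apart from less RNA per cell. Oligodendrocyte precursor genes had 7 of 15 means higher and a median of -0.02.

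Genes of striatal medium spiny neurons, a cell type of a neighbouring region, had 0 of 27 higher means and a median of -0.87. Drd2, the dopamine D2 receptor gene, was at 1.26, 12.4, 13.7 and 13.6 FPKM in PBS and 0.741, 0.980, 1.31 and 1.29 FPKM in 5-AzaD. PBS 1 lay with the 5-AzaD libraries and PBS 2, 3 and 4 far above. The adenosine receptor gene Adora2a showed the same split, at 2.45 FPKM in PBS 1 and 24.4 to 32.1 FPKM in PBS 2 to 4. High levels were not limited to the PBS group. The uninjected library HF 8 was higher still, at 30.7 FPKM of Drd2 and 59.4 FPKM of Adora2a, with a striatal score of 1.89. All other uninjected libraries were at most at 4.88 FPKM of Drd2 and 8.78 FPKM of Adora2a. Summed over the 27 members, levels were 465 to 1444 FPKM in PBS and 483 to 580 FPKM in 5-AzaD. Without PBS 3 and 4 the median of the list was -0.62, with 3 of 27 means higher. Without PBS 2 as well it was 0.15, against PBS 1 alone. The libraries left out were those with the high scores, which by itself moves the median toward 0. Hypothalamic and septal genes had 1 of 20 higher means (median -0.59). Their median was -0.09 without PBS 3 and 4, and 0.30 against PBS 1 alone. Neuropeptide genes had 5 of 29 higher (median -0.73), among them Tac1, which encodes substance P, at 52.8 ± 27.8 and 12.3 ± 6.58 FPKM. Th, the tyrosine hydroxylase gene, was at 1.89 ± 0.461 and 1.04 ± 0.181 FPKM with no overlap.

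Within the cortical cell classes, the scores of deep layer and interneuron markers did not overlap between groups and were lower in 5-AzaD. These were 2 of 52 lists scored, and the groups did not overlap in 2.4% of all loci. Deep layer scores were 0.26, 0.18, 0.03 and 0.37 in PBS and -0.14, -0.02, -0.34 and -0.03 in 5-AzaD, and 16 of 24 members had lower means (median -0.24). Tle4, a transcriptional corepressor gene of layer 6 neurons, was at 20.5, 16.3, 17.3 and 19.6 FPKM in PBS and 13.6, 8.75, 15.1 and 9.89 FPKM in 5-AzaD. Syt6, a synaptotagmin gene, was at 9.36, 7.62, 7.46 and 6.72 FPKM in PBS and 4.84, 2.15, 5.18 and 2.54 FPKM in 5-AzaD. Both had no overlap and an adjusted p of 0.586 (limma). Tle4 was at 19.7 ± 5.37 FPKM in HF rats and 16.7 ± 1.86 FPKM in chow rats. Syt6 was at 9.15 ± 5.76 and 5.68 ± 1.60 FPKM in those groups. HF 8 was highest for both, at 26.9 and 17.1 FPKM. The lowest uninjected libraries, at 14.2 FPKM of Tle4 and 3.45 FPKM of Syt6, lay within the 5-AzaD range. Cplx3, a complexin gene of subplate-like neurons, was at 7.28 ± 4.10 and 3.23 ± 0.987 FPKM. The median of the deep layer list was -0.24 with the covariates and -0.26 without PBS 3 and 4.

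Interneuron genes had 19 of 30 lower means and a median of -0.29, which was -0.14 without PBS 3 and 4 and -0.09 with the covariates. Chrna2, a nicotinic receptor subunit gene, had the higher mean in 5-AzaD, at 0.979 ± 0.158 and 1.30 ± 0.0839 FPKM, with no overlap. Upper layer markers were split 9 and 9 (median 0.01). Unc5d, a netrin receptor gene of upper layer neurons, was at 3.70, 4.42, 4.82 and 2.48 FPKM in PBS and 5.57, 17.4, 6 and 8.87 FPKM in 5-AzaD, a difference of 1.08 (0.36 to 1.81, adjusted p = 0.586). Its relative Unc5a was at 37.9 ± 8.09 and 60.2 ± 18.3 FPKM. The Slit, Robo, netrin and Unc5 list had 11 of 17 higher means.

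Synapse and channel genes mostly had the higher mean in 5-AzaD with all 8 libraries and no covariates, but not in every setting. Of excitatory neuron and glutamate synapse genes 30 of 37 were higher (median 0.22), and of voltage-gated sodium and calcium channel genes 19 of 22 (median 0.21). Gria4, an AMPA receptor subunit gene, was at 36.9, 33.3, 30.8 and 26.3 FPKM in PBS and 39.8, 42.3, 39.4 and 37.9 FPKM in 5-AzaD. Cacna1d and Cacnb3, calcium channel subunit genes, were at 9.36 ± 1.04 and 11.9 ± 0.672 FPKM and at 92.6 ± 16.5 and 119 ± 11.2 FPKM. None of the 3 overlapped between groups, and the lowest adjusted p among them was 0.586 (limma). On the higher side 2 of the 37 and 2 of the 22 genes did not overlap, beside 1.46% of all loci. Without PBS 3 and 4 the medians of both lists were 0.01, and 20 of 37 and 11 of 22 means were higher. With the covariates the medians were -0.12 and -0.00105, and 11 of 37 and 11 of 22 were higher. Potassium channel genes had 36 of 56 higher means and a median of 0.13, which became -0.15 without PBS 3 and 4. With the covariates it was -0.17, with 12 of 56 higher. Kcnt1, a sodium-activated potassium channel gene, was at 23.2, 20.7, 18.4 and 19.7 FPKM in PBS and 27.7, 25.2, 39.3 and 23.5 FPKM in 5-AzaD. GABA receptor subunit genes had 9 of 13 higher (median 0.23). The median was -0.10 without PBS 3 and 4, and -0.24 with the covariates, with 3 of 13 higher.

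Markers of astrocytes had 6 of 26 higher means (median -0.17), with Gfap, the glial filament gene, at 122, 196, 213 and 253 FPKM in PBS and 71.2, 145, 96.0 and 174 FPKM in 5-AzaD. Microglia markers were split 12 and 12, but this moved with the libraries used: 21 of 24 means were higher without PBS 3 and 4 (median 0.34) and 1 of 24 without PBS 1 (median -0.24). Endothelial markers had 17 of 21 higher (median 0.14). Mural and leptomeningeal genes had 26 of 28 higher means and a median of 0.48. It was 0.12 without PBS 3 and 4, and 1.18 against PBS 1 alone. Hemoglobin genes had the higher mean in 5-AzaD at each of 3 tested loci, and the merged Hba1 and Hba2 locus was at 113, 299, 95.9 and 245 FPKM in PBS and 293, 263, 436 and 494 FPKM in 5-AzaD (adjusted p = 0.586). The part of residual blood in the samples was not tested.

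**Figure D5:**
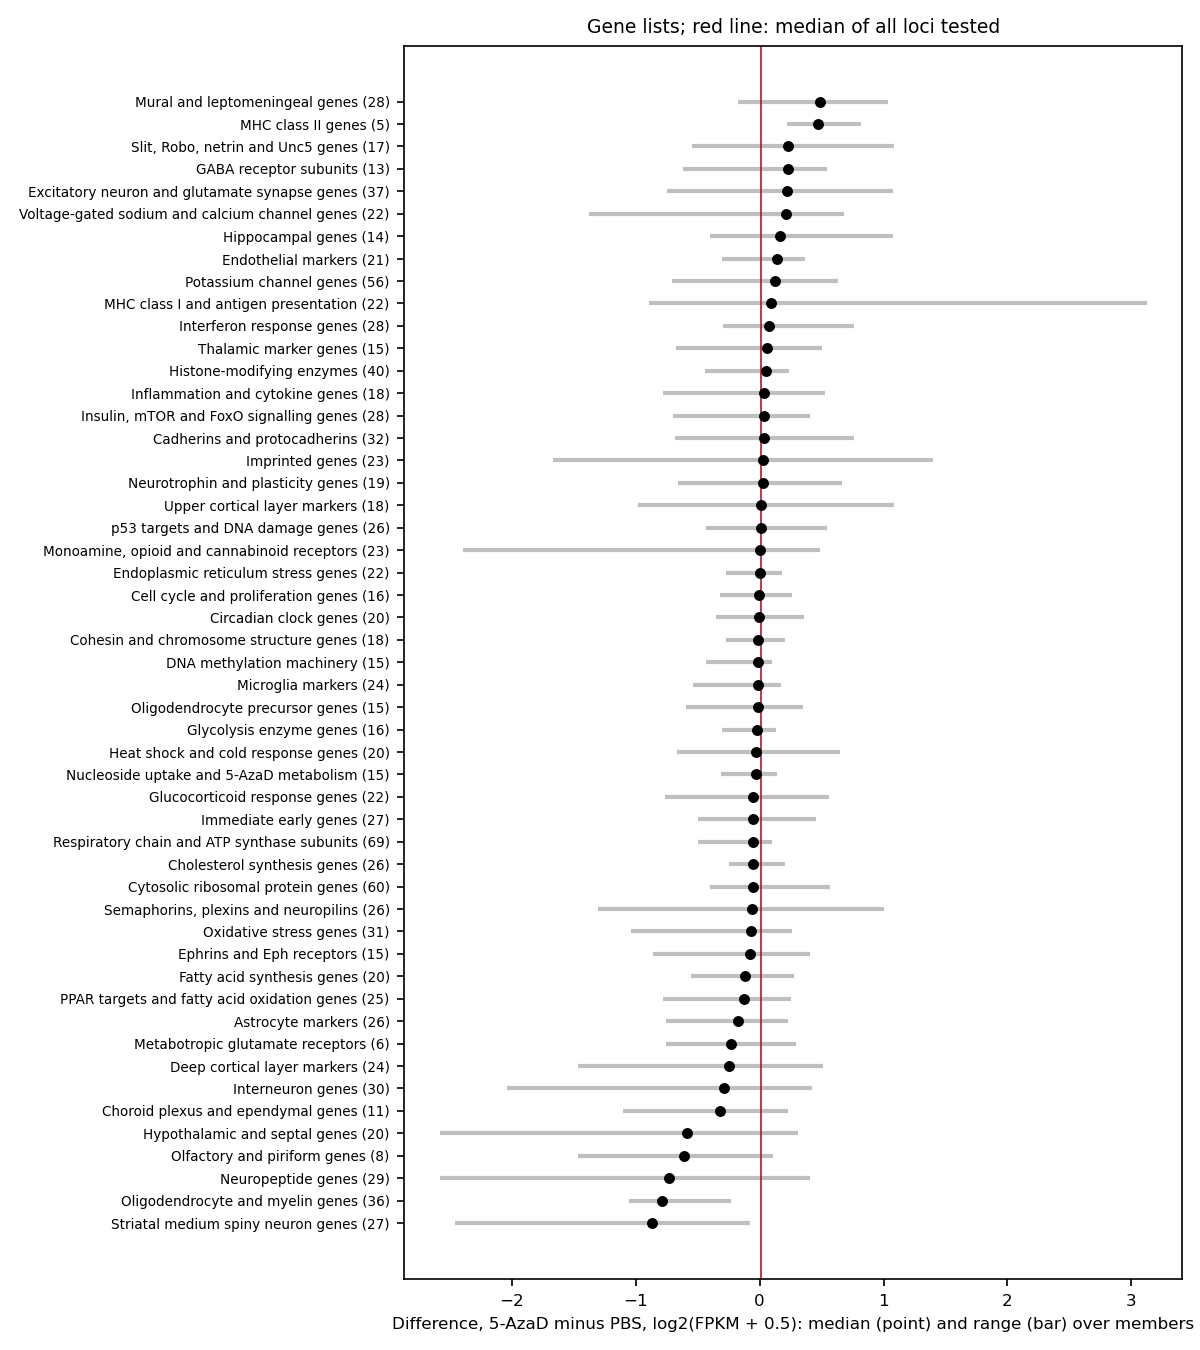
For each gene list with at least 5 tested members (number in brackets), except the muscle list added after the data were seen, the point is the median and the bar the range of the members' differences (x axis, log2 scale, 5-AzaD minus PBS); the red line is the median of all loci, 0.01. Among the lists drawn, striatal and myelin genes lie lowest (-0.87 and -0.79) and mural and leptomeningeal genes highest (0.48), and the methylation machinery lies at -0.01.

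Metabolic lists, of interest because both groups ate the high fat diet, had medians between -0.13 and 0.03. Fatty acid synthesis genes had 14 of 20 lower means (median -0.12), and 6 of these had an unadjusted p under 0.05 (3.78% of all loci did on that side). Gpam, which encodes the acyltransferase of the first step of glycerolipid synthesis, was at 12.2, 13.7, 14.6 and 16.7 FPKM in PBS and 10.8, 9.65, 12.4 and 9.35 FPKM in 5-AzaD, a difference of -0.42 (-0.65 to -0.20, adjusted p = 0.586). Elovl5, a fatty acid elongase gene, was at 38.6, 37.8, 51.9 and 46.8 FPKM in PBS and 31.9, 32.4, 35.7 and 34.9 FPKM in 5-AzaD, with no overlap. Acsl3, an acyl-CoA synthetase gene, was at 68.3 ± 3.13 and 58.0 ± 6.46 FPKM. The median of the list was -0.08 without PBS 3 and 4 and -0.17 with the covariates. Lower means were found in 18 of 25 PPAR target and fatty acid oxidation genes (median -0.13), in 18 of 26 cholesterol synthesis genes (median -0.05) and in 11 of 28 genes of insulin, mTOR and FoxO signalling (median 0.03). Respiratory chain and ATP synthase genes had 52 of 69 lower means with a median of -0.05, and without PBS 3 and 4 it was 0.02.

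Stress response lists, with inflammation genes among them, had medians between -0.07 and 0.03. Oxidative stress genes had 22 of 31 lower means (median -0.07), 3 of them at an unadjusted p under 0.05, beside 3.78% of all loci on that side, and without PBS 3 and 4 the median was 0.01. Medians were -0.05 for 27 immediate early genes and for 22 glucocorticoid response genes, -0.00201 for 20 circadian clock genes, -0.03 for 20 heat shock and cold response genes, and -0.00125 for 22 endoplasmic reticulum stress genes. Inflammation and cytokine genes had 10 of 18 higher means and a median of 0.03. None of their members was called.

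Loci with no symbol leaned slightly more to the higher side. Of 3791 such loci 55.4% had the higher mean in 5-AzaD, and of 11033 loci with a symbol 51.8%. Of the 3791 without a symbol, the groups did not overlap in 67 on the higher side and 37 on the lower. Of the 11033 with a symbol, they did not overlap in 150 and 102. Over all loci tested, the groups did not overlap in 1.46% on the higher side and 0.938% on the lower. Whether loci with and without a symbol differ in this was not tested.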

How the data were processed

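RNA of rat frontal cortex was sequenced after poly-A selection with random priming, per the labels' protocols, which do not give the strand, so overlapping and antisense transcripts cannot be told apart. The authors deposited FPKM per merged locus and library, each with a status. Cufflinks, Cuffdiff, Bowtie, Bowtie2, TopHat, TopHat2 and the build rn5 appear in the submitters' processing notes without roles or versions. Values were used as deposited. Loci with a mean under 1 FPKM over 16 libraries, and 161 loci not marked OK everywhere, were left out. Differences come from limma 3.58.1 (R 4.3.3, trended prior, checked on simulated data) on log2(FPKM + 0.5), with all 4 groups in the fit (12 residual degrees of freedom), and summaries and plots from pandas 2.3.3, numpy 2.4.6 and matplotlib 3.10.9 in Python 3.11.15. Named loci are the 12 per direction with a symbol, the lowest p and groups that do not overlap, up to 4 members per list with the lowest p, and methylation genes; Slc17a7, Oxt, Avp, Ckm, Tnni2, Mbp, Igf2, Mael, RT1-A2 and the other RT1-CE16 locus were chosen after their values were seen. Where loci share a symbol, the one with the highest mean stands for it. Lists are described by counts and medians with no test. Members and lists were chosen with earlier results of these data known. Alternatives covered the pseudocount, filters, normalization, model settings, covariates and each library left out. Promoter sequences are from RefSeq (GRCr8). Some genes of the lists are not named here. The table held 0 columns from outside the series.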

Additional observations from a re-analysis of the deposited data

Results flagged for a closer look

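In groups of 4, a library was looked at again when its gap to the nearest other library exceeded Dixon's critical share of the group's range at the 95% level. Of 152 groups of values named above, 12 held such a library. Chance gives about 1 in 20, but some of these values, among them Ckm, Tnni2, Oxt, Igf2 and the muscle list, were chosen after they were seen, so the count cannot be set against that share.

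Muscle genes marked 5-AzaD 7: the score was 3.95 against -0.66 to -0.06 in the other 5-AzaD libraries, Ckm was at 83.8 FPKM against at most 0.0406 FPKM, and Tnni2 was at 77.8 FPKM where the other 5-AzaD libraries were listed at 0. Tnni2 was also at 0.704 FPKM in PBS 4, against at most 0.0961 FPKM in the other PBS libraries. Igf2 was at 155 FPKM in 5-AzaD 7 and at 125 FPKM in PBS 2, against at most 47.3 and 22.5 FPKM in the rest of each group. RT1-Da was at 15.6 FPKM in PBS 2, where the other PBS libraries reached 4.07 FPKM.

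PBS 1 stood below the other PBS libraries in the striatal score, at -0.53 against 0.88 to 0.94, and in Drd2, at 1.26 FPKM against 12.4 to 13.7 FPKM. PBS 3 stood above them in Oxt, at 403 FPKM against at most 46.6 FPKM, and in Calcr, at 21.7 FPKM against at most 0.875 FPKM. Lrrc26 was at 15.2 FPKM in 5-AzaD 6 and at 8.72 to 9.41 FPKM in the other 5-AzaD libraries.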

How the results depend on the processing

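The count of loci past the test was 0 with all libraries and in all but 1 of 22 alternatives. Leaving out 1 library at a time gave 0 to 1 calls: without 5-AzaD 7, 1 locus without a symbol, XLOC_013919, was called (-7.62, adjusted p = 0.000221, limma). It was at 86.5, 158, 57.2 and 116 FPKM in PBS, listed at 0 in 5-AzaD 3, 5 and 6, and at 47.3 FPKM in 5-AzaD 7. With all libraries its difference was -5.97 (adjusted p = 0.586, limma), and the groups did not overlap. The uninjected libraries were at 59.6 to 696 FPKM, above all 5-AzaD libraries.

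Counts at an unadjusted p under 0.05, 1100 with all settings as reported, were 1985 without the filter on low values, 731 at a mean of at least 5 FPKM, 594 with only the 8 libraries fitted, 516 with library weights, 715 with the covariates, 593 without PBS 3 and 4, 584 without PBS 2, 3 and 4, and 690 to 1567 with 1 library left out, the lowest without PBS 4. The settings without PBS 3 and 4, or 2 to 4, were chosen after seeing the data. Dnmt1 differed by -0.02 with all libraries and by -0.0455 to 8.38e-05 with 1 left out, above 0 without PBS 1. Of 520 values of the 24 named loci under alternatives 0 changed direction and 0 passed the test. For most alternatives the direction was fixed in advance, as these loci were picked for groups that do not overlap. Of 1141 list medians 38 moved by more than the spread of the list's score. The causes were not tested.

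No paired analysis was possible because the 2 groups share only 1 replicate number.

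With 4 libraries a group and read counts unknown, the interval given with each gene shows how precisely its difference was measured. It is not a limit of detection. Cdh22 had an interval of 0.51 to 1.02, which leaves out 0, and was not called after adjustment over all loci tested. In 14.3% of loci the interval reached past 1 log2 unit.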
